A study of Mus musculus with 68 samples.

Results

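The microRNAs described here are the lung members of the miR-15, miR-16, miR-195 and miR-497 family and the closely related miR-103 and miR-107. All table entries whose name has the stem mir-15a, mir-15b, mir-16, mir-195, mir-497, mir-103 or mir-107 were taken, for every locus and both arms, and 16 of the 480 entries of the small RNA table met this rule. Of these, 12 were listed in every library used and were tested among 320 such miRNAs. The other 4 were mmu-mir-15a-3p, mmu-mir-16-1-3p, mmu-mir-497-3p and mmu-mir-103-2-5p, minor arms that were missing from at least 1 library.

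The samples were lungs of wild-type male C57BL/6J and CAST/EiJ mice from The Jackson Laboratory, 2 inbred strains, that were kept in clean air or inhaled 1,3-butadiene (BD), an industrial gas and known carcinogen. BD was given on weekdays for 6 h per day over 2 weeks, and the labels give neither the concentration nor the age of the mice. The small RNA libraries numbered 5 for C57BL/6J in clean air, 4 for C57BL/6J under BD, 7 for CAST/EiJ in clean air and 4 for CAST/EiJ under BD. Of the last, the library titled number 8 is shown apart, which leaves 3. The labels do not say whether each library came from a separate mouse, so the p-values measure the spread between libraries, which may in part be technical.

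A microRNA guides an Argonaute protein to messenger RNAs that pair with its seed, the bases near its 5′ end, and lowers their translation and stability. The miR-15/16 family is best known for holding back the cell cycle and cell survival through targets such as cyclins and Bcl2. The hairpins of miR-103 and miR-107 lie in introns of the pantothenate kinase genes, whose products start coenzyme A synthesis, and miR-103 and miR-107 are known to act on Dicer1, the enzyme that cuts hairpins into mature miRNAs.

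The mature sequences are given because the members fall into families by seed and because several differ by few bases. Each is written 5′ to 3′ from RefSeq (build GRCm38.p6), with the seed, bases 2 to 8, in capitals. All 16 entries had a RefSeq sequence, and the table's mir-195 and mir-497 are named miR-195a and miR-497a there. The first family shares the seed AGCAGCA.
miR-16-5p: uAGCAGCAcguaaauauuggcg
miR-15a-5p: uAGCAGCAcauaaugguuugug
miR-15b-5p: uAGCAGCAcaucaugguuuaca
miR-195a-5p: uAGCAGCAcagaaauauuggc
miR-497a-5p: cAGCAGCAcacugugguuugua
The second family has the same 7 letters moved by 1 place, beginning at base 1 rather than base 2, so that its seed reads GCAGCAU.
miR-103-3p: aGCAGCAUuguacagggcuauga
miR-107-3p: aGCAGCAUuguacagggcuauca
Counted from 1 at the 5′ end, miR-103-3p and miR-107-3p, both of 23 bases, differ by the substitution G22C alone. miR-16-5p and miR-195a-5p differ by G10A and U11G over their common length, and miR-15a-5p and miR-15b-5p by A12C, G20A, U21C and G22A. The opposite arms described below have seeds of their own.
miR-195a-3p: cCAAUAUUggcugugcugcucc
miR-497a-3p: cAAACCACacugugguguuag
miR-15b-3p: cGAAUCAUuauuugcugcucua
In RefSeq the hairpins sit in pairs: Mir15a and Mir16-1 in the non-coding gene Dleu2 on chromosome 14, Mir15b and Mir16-2 in Smc4 on chromosome 3, and Mir497 and Mir195a beside each other on chromosome 11. Mir103-1 lies within Pank3 on chromosome 11, Mir103-2 within Pank2 on chromosome 2 and Mir107 within Pank1 on chromosome 19. The Mir497 and Mir195a hairpins are shown because the results below turn on this pair, both on the plus strand and 241 bases apart, with the mature arms in capitals.
Mir497, chr11:70234717-70234800: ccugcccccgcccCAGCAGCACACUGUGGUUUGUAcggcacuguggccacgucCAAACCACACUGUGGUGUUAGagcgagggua
Mir195a, chr11:70235042-70235135: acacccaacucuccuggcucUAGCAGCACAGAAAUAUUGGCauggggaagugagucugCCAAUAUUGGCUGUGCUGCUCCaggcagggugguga
The entries mir-103-1-3p and mir-103-2-3p have the same mature sequence, as do mir-16-1-5p and mir-16-2-5p, so reads cannot be assigned to one locus of such a pair. Their levels differed by a factor of 1.02 to 1.04 and of 0.98 to 1.00 in each library, and each pair is 1 measurement given under 2 names. How shared reads were divided between loci is not given in the sources used here, so sums and shares below are over the table's entries.

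The small RNA libraries held 2066588 to 8474182 counts and the 24 RNA-seq libraries of the same tissue 10601756 to 50001571. C57BL/6J BD libraries 15, 16 and 17 were the deepest small RNA libraries, with at least 7676679 counts, against 3146118 in number 18 of the same group. Lung markers were abundant in every group: 12 of 13 listed lung mRNAs were measured, with a summed level of 23632 to 38719 CPM. The 18 miRNA stems listed for lung tissue, which include blood and immune cell stems, made up 19.9 to 28.4% of a library. The 7 listed mRNAs of liver, thymus and squamous epithelium varied widely within groups. Their summed level was 19.0 to 1560 CPM in C57BL/6J in clean air and 6.63 to 1183 CPM under BD. In CAST/EiJ it was 12.4 to 1998 CPM and 22.6 to 2232 CPM in the same order. Its bearing on the members was not tested. The title numbers are not spread evenly over the groups. Small RNA from C57BL/6J under BD came only from numbers 15 to 18, from CAST/EiJ under BD only from numbers up to 10, and numbers over 100 occurred in clean air only. Strain under BD and this division of the numbers therefore cannot be told apart. BD in C57BL/6J and numbers 15 to 18 cannot be told apart either, because no C57BL/6J clean-air library has such a number. Library 8, labelled CAST/EiJ under BD, lay nearer the C57BL/6J clean-air mean than the CAST/EiJ clean-air mean in 112 of 127 miRNAs that differed between the strains, against 30 to 33 for the other 3 CAST/EiJ BD libraries. All tests below leave it out, and its level is given beside the tests of some members.

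To see whether BD changed the family, counts were compared with edgeR's quasi-likelihood test, with Benjamini-Hochberg adjustment over all 320 miRNAs and a call at an adjusted p under 0.05. Levels are in CPM, a library's counts scaled to 1000000 after TMM normalization (trimmed mean of M-values). A mature miRNA gives 1 read per molecule whatever its gene's length, but capture differs between miRNAs, so comparisons of level between members are approximate. In C57BL/6J, 4 of 12 members passed under BD, 2 higher and 2 lower, beside 31.6% of all miRNAs tested (19.1% higher and 12.5% lower). In CAST/EiJ, 2 of 12 passed, both lower, beside 2.81% in either direction and 1.56% lower. Between the strains in clean air 5 passed, 3 higher and 2 lower in CAST/EiJ (background 39.7%, of which 21.2% higher and 18.4% lower), and under BD 5 passed, 1 higher and 4 lower (41.9%, of which 18.4% higher and 23.4% lower). The BD response differed between the strains for 5 members (27.8%), 1 more positive (12.5%) and 4 more negative (15.3%) in CAST/EiJ. The share of members was near the background for BD in C57BL/6J (33.3%) and for the strains in both conditions (41.7% each). The entries mir-103-1-3p and mir-103-2-3p enter each count together, as the 2 that rose in C57BL/6J and the 2 that fell in CAST/EiJ. The comparisons share libraries and are not independent. The members' median log2 difference was 0.19, 0.02, 0.11, -0.15 and -0.12 in the order given, against 0.02, -0.02, -0.01, -0.04 and -0.06 over all miRNAs tested.

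**Figure D1:**
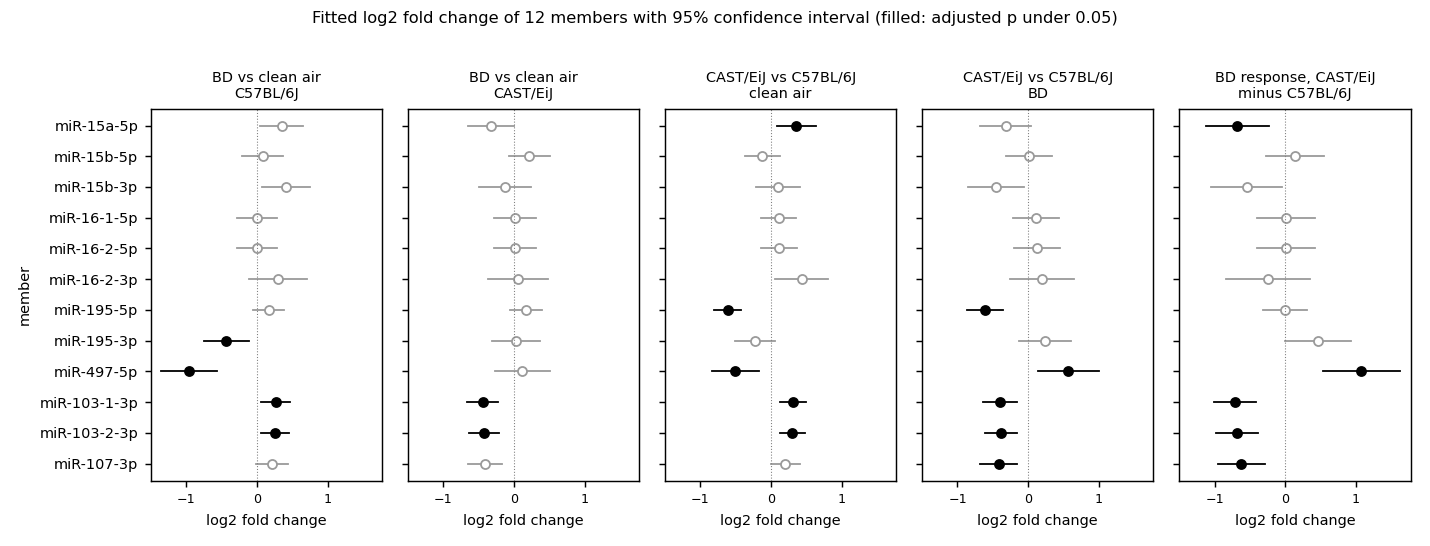
Fitted log2 fold changes of the 12 tested members (rows) in the 5 comparisons (panels), as points with 95% confidence intervals; filled points passed at an adjusted p under 0.05. miR-497-5p is lower under BD in C57BL/6J (-0.96) and its response differs between the strains (1.08), while miR-103-1-3p, miR-103-2-3p and miR-107-3p lie on opposite sides of 0 in the 2 strains under BD.

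mmu-mir-497-5p (miR-497-5p) had the largest fitted BD difference of the 12 members in C57BL/6J. Its level in C57BL/6J in clean air was 1430, 1407, 1075 and 1511 CPM in libraries 3 to 6 and 1221 CPM in the fifth, the only one of the group with a number over 100. Under BD it was 660, 460 and 574 CPM in libraries 15, 16 and 17 and 1039 CPM in library 18. The 4 exposed libraries lay below all 5 controls, although number 18 was close to the lowest control. The means were 683 ± 251 CPM (SD, n = 4) and 1329 ± 177 CPM (SD, n = 5), a 1.95-fold lower level under BD (log2 -0.96, 95% confidence interval -1.35 to -0.57, adjusted p = 0.00115).

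In CAST/EiJ the level of miR-497-5p was 1127, 857, 1149, 947, 806, 781 and 870 CPM in clean air (libraries 1 and 2, then replicates 1 to 5, which have numbers over 100). It was 1073, 1078 and 888 CPM under BD in libraries 7, 9 and 10, within the range of the controls, and 1140 CPM in library 8. The means were 934 ± 149 CPM (SD, n = 7) and 1013 ± 108 CPM (SD, n = 3), with a difference of 0.12 on the log2 scale (adjusted p = 0.711). The difference between the strains' responses was itself tested and reached 1.08 on the log2 scale, a factor of 2.11 (95% confidence interval 0.53 to 1.62, adjusted p = 0.00556). From highest to lowest the group means ran C57BL/6J in clean air, CAST/EiJ under BD, CAST/EiJ in clean air and C57BL/6J under BD. CAST/EiJ was 1.42-fold below C57BL/6J in clean air (adjusted p = 0.015) and 1.48-fold above it under BD (adjusted p = 0.034). The former call was lost without library 6 (adjusted p = 0.0633) and the latter in 8 of 19 fits that left out 1 library, those without library 6, 7, 9, 15, 16 or 17, CAST/EiJ clean-air replicate 2 or C57BL/6J clean-air replicate 1 (adjusted p up to 0.109). The 2 CAST/EiJ groups, neighbours in this order, did not differ beyond their spread.

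The call in C57BL/6J was kept in all 19 fits that left out 1 library, with adjusted p-values from 1.81e-05 to 0.0085. It was also kept with all libraries thinned to a common depth (log2 -0.97, adjusted p = 0.00178). Thinning keeps each miRNA's share of its library, so it cannot show whether libraries 15, 16 and 17 differ in other ways than depth. A term for numbers up to 10 against higher ones kept the call too (-0.85, adjusted p = 0.0168). That term groups numbers 15 to 18 with those over 100, so it cannot separate BD in C57BL/6J from numbers 15 to 18. Without the deep libraries 15, 16 and 17 the difference was -0.34 with an adjusted p of 0.58, and it then rests on library 18 alone. The strain difference under BD was -0.061 (adjusted p = 0.899) and the difference in response 0.47 (adjusted p = 0.263) without them. Without libraries numbered over 100 the difference in response was 1.00 with an adjusted p of 0.0815, and with the term for numbers up to 10 it was 0.88 (adjusted p = 0.175). That term also took the strain difference under BD to 0.44 (adjusted p = 0.236). The strain difference in clean air was -0.44 without numbers over 100 (adjusted p = 0.295), with either term for the numbers (adjusted p = 0.0662) and within numbers 1 to 10, where it passed (adjusted p = 0.039).

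miR-195-5p, processed from the neighbouring hairpin, differed between the strains and not detectably with BD. In C57BL/6J it was at 982 to 1123 CPM in clean air, and at 1216, 1413, 1074 and 1021 CPM under BD in libraries 15 to 18. In CAST/EiJ it was at 587 to 766 CPM in clean air and at 775, 752 and 794 CPM under BD in libraries 7, 9 and 10. Library 8 held 1011 CPM, inside the C57BL/6J range and above every other CAST/EiJ library. CAST/EiJ was 1.53-fold lower in clean air (688 ± 66.0 CPM, SD, n = 7, against 1051 ± 55.8 CPM, SD, n = 5, adjusted p = 2.11e-05). It was 1.53-fold lower under BD as well (774 ± 20.8 CPM, SD, n = 3, against 1181 ± 175 CPM, SD, n = 4, adjusted p = 0.000655). The strains did not overlap in either condition, and both calls were kept in all 19 fits that left out 1 library. The BD difference was 0.17 on the log2 scale in each strain (adjusted p = 0.227 and 0.371), and the strains' responses differed by 0.00 (95% confidence interval -0.31 to 0.31). Within numbers 1 to 10 alone, the strain difference in clean air was -0.81 (adjusted p = 5.83e-05). Under BD it was -0.42 with an adjusted p of 0.136 without libraries 15 to 17.

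miR-195-3p, the opposite arm of the same hairpin, did not follow miR-195-5p. In C57BL/6J it was at 43.4, 39.7, 34.6 and 66.0 CPM under BD in libraries 15 to 18, and at 65.9, 61.5, 50.5, 63.7 and 65.0 CPM in clean air. Libraries 15 to 17 were below every control, and library 18 was the highest of the 9. The fitted difference was 1.35-fold lower under BD (log2 -0.43, adjusted p = 0.0398). It passed no longer in 9 of the 19 fits that left out 1 library, those without library 3, 4, 6, 15, 16 or 17, CAST/EiJ clean-air replicates 1 or 2 or C57BL/6J clean-air replicate 1 (adjusted p up to 0.165), and without libraries 15 to 17 it was 0.12 (adjusted p = 0.815). No other comparison of miR-195-3p passed (adjusted p from 0.132 to 0.905), and library 8 held 72.5 CPM.

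miR-497-3p, the minor arm of the miR-497 hairpin, was listed in 17 of 19 libraries and was not tested. In C57BL/6J it was at 18.1, 11.3, 12.4 and 12.2 CPM under BD and at no more than 8.01 CPM in the 4 clean-air libraries that list it. In CAST/EiJ it was at 6.01 to 9.48 CPM in clean air, and at 5.24 and 6.76 CPM in the 2 libraries used that list it under BD. The minor arm thus stood higher in the C57BL/6J BD libraries, in which the major arm miR-497-5p was lower. These values correspond to few counts in most libraries.

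**Figure D2:**
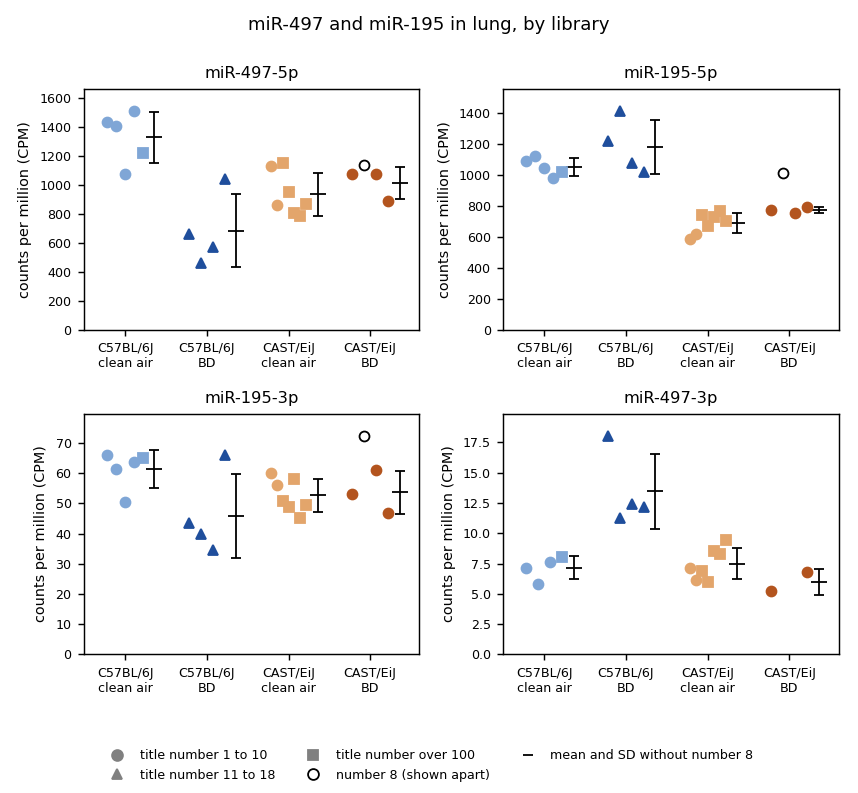
Level in CPM (scaled counts) of both arms of miR-497 and miR-195 in every small RNA library by strain and exposure; marker shape gives the range of the title number, the open circle is library 8, and the bar is the mean with SD without it. miR-497-5p is low in C57BL/6J BD libraries 15 to 17 (460 to 660 CPM), miR-195-5p separates the strains, and miR-497-3p is highest in the C57BL/6J BD libraries.

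Ratios of 2 members within 1 library do not depend on its scaling, and 4 ratios were compared over 4 pairs of groups, 16 tests in all. The ratio of miR-497-5p to miR-195-5p was 0.543, 0.326, 0.534 and 1.02 in C57BL/6J BD libraries 15 to 18, and 1.31, 1.25, 1.03, 1.54 and 1.20 in clean air. All 4 exposed libraries lay below the controls, library 18 by a narrow margin. The geometric means were 0.557 and 1.26, 2.26-fold apart (two-sided exact permutation test, p = 0.0159, the smallest that 4 libraries against 5 allow; 0.0848 after adjustment over the 16 tests). In CAST/EiJ the geometric means were 1.30 under BD and 1.35 in clean air (exact permutation p = 0.9). For miR-195 the ratio of 5p to 3p was 28.0, 35.6, 31.0 and 15.5 under BD in C57BL/6J and 15.4 to 20.7 in clean air (geometric means 26.3 and 17.2, exact permutation p = 0.0794, adjusted 0.127). For miR-15b the ratio of 5p to 3p was 5.22, 5.22, 4.90 and 4.82 under BD and 5.85 to 7.29 in clean air (geometric means 5.04 and 6.39, exact permutation p = 0.0159, adjusted 0.0848). The miR-15b ratio was lower under BD in number 18 as well, whereas for miR-195 number 18 lay with the controls. For miR-15a-5p over miR-16-1-5p the geometric means in C57BL/6J were 0.174 under BD and 0.136 in clean air (exact permutation p = 0.0476, adjusted 0.114). In CAST/EiJ they were 0.129 and 0.162 (exact permutation p = 0.0333, adjusted 0.114). The ranges overlapped in both strains. No ratio passed after adjustment over the 16 tests, and the ratios were chosen after their values were seen.

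**Figure D3:**
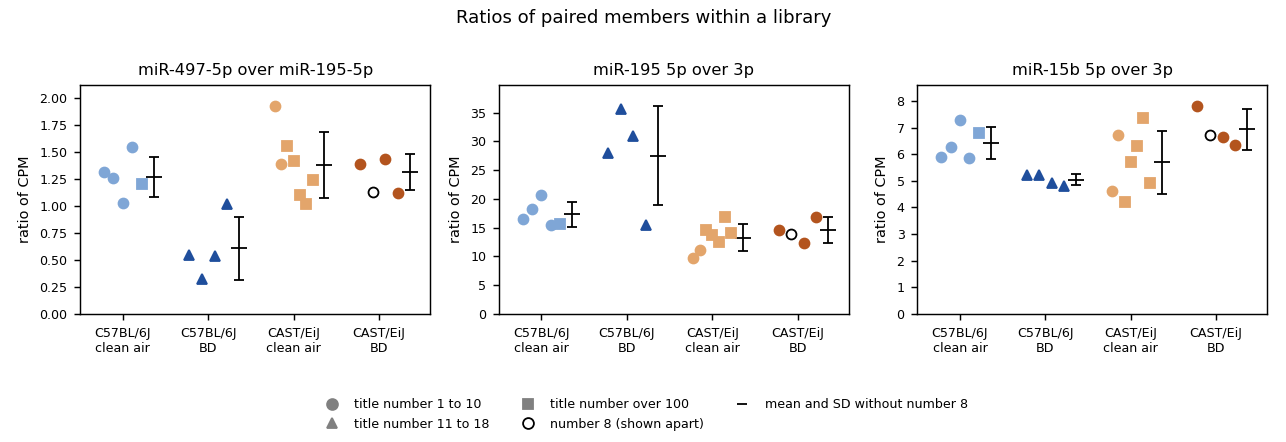
Ratio of the CPM of paired members within each small RNA library by strain and exposure, with markers as for title numbers and the mean with SD without library 8 as bars. In C57BL/6J under BD the ratio of miR-497-5p to miR-195-5p is 0.326 to 0.543 in 3 libraries and 1.02 in library 18, against 1.03 to 1.54 in clean air.

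The 2 entries of miR-103-3p passed as higher under BD in C57BL/6J and as lower under BD in CAST/EiJ, while miR-107-3p passed in neither strain. mmu-mir-103-1-3p (miR-103-1-3p) in C57BL/6J was at 1340, 1383, 1272, 1335 and 1524 CPM in clean air (libraries 3 to 6, then replicate 1) and at 1740, 1521, 1560 and 1764 CPM under BD. The exposed libraries were higher apart from library 16, which was below replicate 1 of the controls. The means were 1646 ± 124 CPM (SD, n = 4) and 1371 ± 94.4 CPM (SD, n = 5), a rise of 0.26 on the log2 scale (adjusted p = 0.0458), and the call was lost in 17 of 19 fits that left out 1 library, all but those without 2 or 16 (adjusted p up to 0.184). With DESeq2 the difference was 0.23 (adjusted p = 0.1).

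In CAST/EiJ miR-103-1-3p was at 1642, 1363, 1704, 1704, 1990, 1678 and 1833 CPM in clean air (libraries 1 and 2, then replicates 1 to 5). Under BD it was at 1264, 1256 and 1231 CPM in libraries 7, 9 and 10, below all 7 controls, and at 1431 CPM in library 8. The means were 1250 ± 17 CPM (SD, n = 3) and 1702 ± 191 CPM (SD, n = 7), 1.36-fold lower under BD (adjusted p = 0.0282). The call was lost in 7 of 19 fits that left out 1 library, those without library 7, 9 or 10 or CAST/EiJ clean-air replicate 1, 2, 3 or 4 (adjusted p up to 0.162). The strain order turned over: CAST/EiJ was 1.24-fold higher in clean air (adjusted p = 0.00691) and 1.32-fold lower under BD (adjusted p = 0.00983, no overlap). The latter call was lost without library 9 (adjusted p = 0.0671). The clean-air difference was 0.18 without numbers over 100 (adjusted p = 0.4), 0.18 within numbers 1 to 10 (adjusted p = 0.216) and 0.19 with a term for numbers over 100 or for numbers up to 10 (adjusted p = 0.0983 with either). With the latter term the difference under BD was -0.17 (adjusted p = 0.344). The difference between the responses was -0.71 on the log2 scale (95% confidence interval -1.01 to -0.41, adjusted p = 0.00305) and was kept in all 19 such fits. mmu-mir-103-2-3p, counted from the same sequence, had a difference in response of -0.68 (adjusted p = 0.00329).

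mmu-mir-107-3p (miR-107-3p) was the smaller part of the family, 7.36 to 9.35% of the sum of the 3 entries. In C57BL/6J it was at 282, 240, 239, 249 and 282 CPM in clean air and at 334, 273, 297 and 294 CPM under BD (adjusted p = 0.154). In CAST/EiJ it was at 255 to 362 CPM in clean air, and at 232, 240 and 199 CPM under BD, below all 7 controls (log2 -0.41, adjusted p = 0.0671). Neither BD comparison of miR-107-3p passed, although that in CAST/EiJ did with DESeq2 (-0.40, adjusted p = 0.0141) and with library 8 kept (-0.38, adjusted p = 0.048). Under BD it was 1.34-fold lower in CAST/EiJ than in C57BL/6J (224 ± 21.7 CPM, SD, n = 3, against 300 ± 25.3 CPM, SD, n = 4, adjusted p = 0.013). That call was lost without library 10 (adjusted p = 0.0712). The strains' responses differed by -0.62 on the log2 scale (95% confidence interval -0.95 to -0.29, adjusted p = 0.008), and this call was kept in all 19 fits that left out 1 library.

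The levels of this family and of miR-15a-5p also moved with the title numbers. Over all groups miR-103-1-3p ranged from 1231 to 1642 CPM in the 9 libraries numbered up to 10 and from 1521 to 1990 CPM in the 10 with higher numbers. For miR-107-3p the ranges were 199 to 282 CPM and 273 to 362 CPM. With a term for this division the difference in response was -0.36 for miR-103-1-3p (adjusted p = 0.246) and -0.32 for miR-107-3p (adjusted p = 0.387). Within numbers over 10, miR-103-1-3p in C57BL/6J under BD differed from the single control, replicate 1, by 0.03 on the log2 scale, with no test. Within numbers 1 to 10 the difference between CAST/EiJ under BD and in clean air was -0.27 (adjusted p = 0.2). Without numbers over 100 it was -0.27 as well (adjusted p = 0.487), and the difference in response was -0.58 (adjusted p = 0.0589).

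miR-15a-5p, the partner of miR-16 in Dleu2, had a pattern like that of miR-103. In C57BL/6J it was at 708, 709, 682, 647 and 879 CPM in clean air and at 881, 828, 1066 and 918 CPM under BD (adjusted p = 0.0819). In CAST/EiJ it was at 643, 705, 1052, 988, 894, 1121 and 1099 CPM in clean air (libraries 1 and 2, then replicates 1 to 5). Under BD it was at 725, 755 and 741 CPM in libraries 7, 9 and 10 (adjusted p = 0.259), and library 8 held 649 CPM. The difference in response was -0.68 on the log2 scale (95% confidence interval -1.13 to -0.23, adjusted p = 0.0243). CAST/EiJ was 1.28-fold higher in clean air (929 ± 191 CPM, SD, n = 7, against 725 ± 89.6 CPM, SD, n = 5, adjusted p = 0.035). Libraries numbered up to 10 held 643 to 755 CPM, and those with higher numbers 828 to 1121 CPM, without overlap. Both ranges of numbers occurred within the clean-air groups only, with 1 higher-numbered library in C57BL/6J. C57BL/6J under BD had only higher numbers and CAST/EiJ under BD only numbers up to 10. With a term for this division the difference in response turned to 0.13 (adjusted p = 0.742). Without numbers over 100 the strain difference in clean air was -0.025 (adjusted p = 0.9). Leaving out 1 library ended the strain call in 10 of 19 fits, those without library 3, 4, 5, 6 or 9 or any CAST/EiJ clean-air library numbered over 100 (adjusted p up to 0.102). It ended the call on the response in 5, those without 5, 6, 7, 9 or 17 (adjusted p up to 0.0681).

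**Figure D4:**
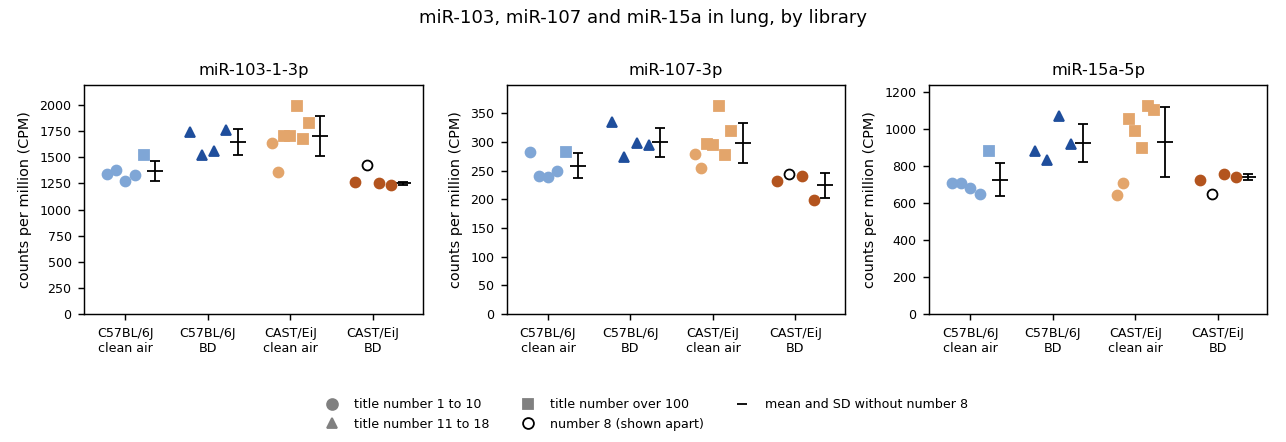
Level in CPM (scaled counts) of miR-103-1-3p, miR-107-3p and miR-15a-5p in every small RNA library by strain and exposure, with marker shape for the title number, library 8 open and the mean with SD without it as bars. For miR-15a-5p the circles (numbers up to 10) hold 643 to 755 CPM against 828 to 1121 CPM for the other symbols.

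miR-16-5p, the most abundant member, did not differ detectably in any comparison. mmu-mir-16-1-5p ranged from 4679 to 7941 CPM in the libraries used, and library 8 held 4498 CPM. The group means were 5307 CPM in C57BL/6J in clean air and 5333 CPM under BD. In CAST/EiJ they were 5711 CPM in clean air and 5773 CPM under BD. The 95% confidence interval of the BD difference was -0.28 to 0.29 on the log2 scale in C57BL/6J and -0.28 to 0.31 in CAST/EiJ. The 2 entries of miR-16-5p made up 75.0 to 85.0% of the summed CPM of member entries with the AGCAGCA seed. If reads shared by the 2 loci were counted in both entries, this share is too high. The sum over that seed was 13806 ± 702 CPM in C57BL/6J in clean air and 13525 ± 1366 CPM under BD (SD, n = 5 and 4), which differed by less than their spread. The share of miR-497-5p in that sum was 9.60 ± 0.92% in clean air and 5.16 ± 2.26% under BD in C57BL/6J, and 6.82 ± 1.58% and 7.15 ± 0.59% in CAST/EiJ.

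miR-15b, the partner of miR-16 in Smc4, had its 5p arm at 108 to 203 CPM with no call in any comparison. Its 3p arm was at 31.7, 38.9, 28.4 and 25.3 CPM in C57BL/6J under BD and at 20.3 to 24.7 CPM in clean air. All 4 exposed libraries were above the 5 controls, and the difference missed the threshold (log2 0.42, adjusted p = 0.0536). miR-16-2-3p, a minor arm at 7.17 to 19.2 CPM, was higher by 0.44 on the log2 scale in CAST/EiJ in clean air and missed it too (adjusted p = 0.0589). Of the other minor arms, miR-15a-3p was listed in 18 of 19 libraries at 4.88 to 10.1 CPM. miR-16-1-3p was listed in 16 at 3.25 to 8.15 CPM, and in none of the 3 CAST/EiJ BD libraries. mmu-mir-103-2-5p was listed in C57BL/6J BD library 16 alone, at 2.17 CPM. That library was the deepest, with 8474182 counts, and the smallest value listed for any miRNA was 10.5 counts. In shallower libraries such a level may fall below the values listed, so its absence there is not a difference in level.

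Outside the members, 1 tested miRNA had a member's seed, mmu-mir-322-5p, with AGCAGCA. It was lower in CAST/EiJ in clean air (793 against 992 CPM, log2 -0.32, adjusted p = 0.0134), a call that was lost without library 3 (adjusted p = 0.0551), and passed in no other comparison. The miRNAs most like each member were ranked by Pearson's r of log2 CPM over the 19 libraries, which share depth, group and title numbers, so r is a description only. For miR-497-5p they were mmu-mir-1198-5p (0.88), mmu-mir-27b-5p (0.86) and mmu-mir-30c-1-5p (0.80). For miR-195-5p they were mmu-mir-153-3p (0.93), mmu-mir-24-2-5p (0.92) and mmu-mir-879-5p (0.91), and for miR-195-3p mmu-mir-27b-5p (0.77), mmu-mir-671-3p (0.75) and mmu-mir-181a-1-5p (0.74). For miR-103-1-3p they were the 3p arms of the 3 miR-199 loci (0.85 to 0.86), and for miR-15a-5p mmu-mir-200a-3p (0.88), mmu-mir-338-3p (0.83) and mmu-mir-218-1-5p (0.82). Among the members themselves r was 0.90 between miR-103-1-3p and miR-107-3p and 0.70 between miR-103-1-3p and miR-15a-5p. It was 0.84 between miR-497-5p and miR-195-3p, and -0.20 between the 2 major arms miR-497-5p and miR-195-5p.

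To see whether the genes that hold or flank the hairpins changed, the RNA-seq libraries were tested in the same way over 17377 genes. Leaving out number 8 kept 23 libraries (5, 6, 7 and 5 in the order of groups above). RNA-seq library 8 lay nearer the C57BL/6J than the CAST/EiJ clean-air mean in 8599 of 10491 genes that differed between the strains. For the other CAST/EiJ BD libraries this held in 2039 to 3328 genes. Primary transcripts are cut quickly and poly(A) RNA holds little of them, so host mRNA is not a measure of hairpin production. Reads may have been counted without regard to strand, which the sources used here do not give. Of 7 listed host and neighbour genes, Mir497hg had no entry among the RNA-seq counts. Of 6 host and neighbour genes tested, 1 was lower under BD in C57BL/6J (10.7% of all genes passed, 4.2% higher and 6.49% lower) and none passed under BD in CAST/EiJ (7.22%, with 3.86% higher and 3.37% lower; 0 at an unadjusted p under 0.05 and 0 by DESeq2). In clean air 1 was higher and 2 lower in CAST/EiJ (60.4%, with 29.4% higher and 31% lower). None passed between the strains under BD (42.7%, with 20.4% higher and 22.3% lower; 1 at an unadjusted p under 0.05 and 0 by DESeq2), and 1 had the more positive response in CAST/EiJ (9.44%, with 5.62% more positive and 3.82% more negative).

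The gene that passed under BD was Bcl6b, a zinc finger repressor expressed in endothelium and lymphocytes. In RefSeq it lies 4918 bases from the Mir497 hairpin. The genes 0610010K14Rik (403 bases), Rnasek (3322 bases) and Gm40191 (4210 bases) lie nearer and were not among the genes followed here. In C57BL/6J in clean air Bcl6b was at 37.2, 33.3, 34.1, 32.8 and 46.6 CPM. Under BD it was at 17.5 to 28.4 CPM, with a median of 23.8 CPM, without overlap. The means were 23.3 ± 3.83 CPM (SD, n = 6) and 36.8 ± 5.74 CPM (SD, n = 5), 1.58-fold lower under BD (adjusted p = 0.0143). The call was kept in all 23 fits that left out 1 library, and without numbers over 100 the adjusted p was 0.0516. In CAST/EiJ Bcl6b was at 28.3 ± 10.5 CPM under BD (SD, n = 5) and 23.0 ± 3.33 CPM in clean air (SD, n = 7, adjusted p = 0.224). It was 1.60-fold lower in CAST/EiJ in clean air (adjusted p = 0.000963), and its responses differed by 0.96 on the log2 scale (adjusted p = 0.0203; 0.97 and 0.107 without numbers over 100). miR-497-5p was lower in the same comparisons; the labels do not say whether both assays used the same mice, and the relation was not tested. Bulk lung cannot tell fewer cells of a type from less RNA per cell. The 3 B cell markers Cd79a, Cd79b and Ms4a1 moved alongside: their summed level was 89.4 to 140.0 CPM in C57BL/6J in clean air, 28.3 to 78.2 CPM under BD, 18.1 to 64.9 CPM in CAST/EiJ in clean air and 20.3 to 50.3 CPM under BD. All 3 passed as lower under BD in C57BL/6J (6.49% of all genes) and as lower in CAST/EiJ in clean air (31%). None passed between the strains under BD (0 by DESeq2) or for the response (2 by DESeq2). The 2 T cell markers were Cd3d and Cd3e. Their sums were 5.79 to 10.8, 3.37 to 7.48, 1.17 to 2.04 and 1.06 to 2.80 CPM in the same order of groups. Of these markers, 1 passed as lower under BD in C57BL/6J (6.49% of all genes). Both passed as lower in CAST/EiJ in clean air (31%) and under BD (22.3%). The response of 1 was more positive in CAST/EiJ (5.62%, and 0 by DESeq2). Of 4 endothelial markers, Cdh5 was at 685 to 821 CPM in C57BL/6J in clean air, 410 to 619 CPM under BD, 329 to 482 CPM in CAST/EiJ in clean air and 315 to 442 CPM under BD. Kdr was at 610 to 677, 426 to 531, 317 to 495 and 293 to 466.5 CPM in that order. Both lay lower under BD than in clean air in C57BL/6J, without overlap, whereas Pecam1 (707 to 839 and 601 to 814 CPM) and Cldn5 (124 to 222 and 140 to 195.3 CPM) overlapped between clean air and BD in C57BL/6J. The part of these cell types in the values of Bcl6b and miR-497-5p was not tested.

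Pank3, the host of Mir103-1, was 1.21-fold higher in CAST/EiJ in clean air (230 ± 25.9 CPM, SD, n = 7, against 190 ± 15.9 CPM, SD, n = 5, adjusted p = 0.00774; 0.0569 without numbers over 100). Its BD difference was 0.08 on the log2 scale in C57BL/6J (adjusted p = 0.643) and -0.14 in CAST/EiJ (adjusted p = 0.262). The difference in response was -0.23 (adjusted p = 0.22). Pank1, Pank2 and Smc4, a condensin subunit, passed in none of the 5 comparisons. Dleu2 was 1.40-fold lower in CAST/EiJ in clean air (adjusted p = 0.00261; log2 -0.23 and adjusted p = 0.204 without numbers over 100), where miR-15a-5p was higher. Of 4 other coenzyme A synthesis genes, 1 passed as higher under BD in C57BL/6J (10.7% of all genes passed in either direction) and 1 as lower in CAST/EiJ in each strain comparison (60.4% in clean air and 42.7% under BD).

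**Figure D5:**
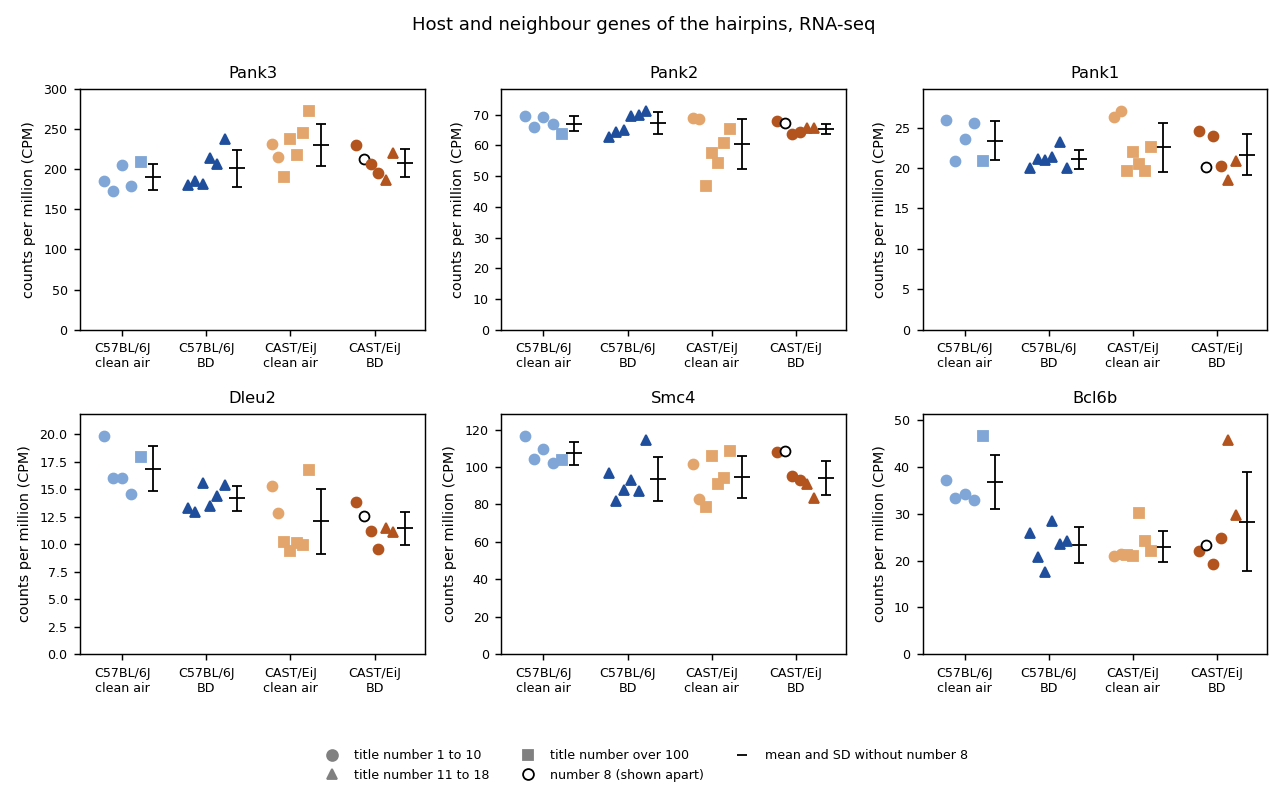
RNA-seq level in CPM (scaled counts) of the host genes Pank3, Pank2, Pank1, Dleu2 and Smc4 and the neighbour Bcl6b in every library by strain and exposure, with library 8 open and the mean with SD without it as bars. Bcl6b is at 17.5 to 28.4 CPM in C57BL/6J under BD, below all 5 clean-air libraries, and the 3 Pank genes overlap between exposures in both strains.

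Dicer1, a known target of miR-103 and miR-107, was 1.46-fold lower in CAST/EiJ in clean air (109 ± 23.6 CPM, SD, n = 7, against 160 ± 11.3 CPM, SD, n = 5, adjusted p = 7.75e-05). In CAST/EiJ it was at 143 and 144 CPM in libraries 1 and 2 and at 85.4 to 100.7 CPM in the 5 numbered over 100. Without numbers over 100 the difference was -0.19 on the log2 scale (adjusted p = 0.0575). Under BD it did not pass in either strain (adjusted p = 0.974 and 0.0682). Of 13 miRNA processing and effector genes tested, 2 were higher and 8 lower in CAST/EiJ in clean air (60.4% of all genes passed), and 3 were higher and 2 lower under BD (42.7%). With BD, 1 was lower in C57BL/6J (10.7%) and 4 were higher in CAST/EiJ (7.22%, with 3.86% higher). The response of 3 was more positive in CAST/EiJ (9.44%, with 5.62% more positive).

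All 42 listed genes that are commonly cited as targets of these families were tested. Under BD 5 rose and 4 fell in C57BL/6J, beside 10.7% of all genes (4.2% higher and 6.49% lower). The median log2 difference of the 42 was -0.020, against -0.0024 over all genes tested. Birc5, an inhibitor of apoptosis made by dividing cells, rose 1.66-fold (adjusted p = 0.00744), and Wee1, a kinase that delays entry into mitosis, rose 1.54-fold from 20.7 to 31.7 CPM (adjusted p = 0.00041). The vascular growth factor receptor Kdr fell 1.31-fold (adjusted p = 0.031) and the fibroblast growth factor receptor Fgfr1 fell 1.30-fold (adjusted p = 0.0376). The Kdr call was lost in 7 of 23 fits that left out 1 library, those without library 3, 4, 15, 16, 17 or 18 or C57BL/6J clean-air replicate 1 (adjusted p up to 0.0768). The Fgfr1 call was lost in 5, those without 4, 5, 15, 16 or 17 (adjusted p up to 0.153).

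In CAST/EiJ 1 target rose under BD and 1 fell, beside 7.22% of all genes, and the median was 0.08 against -0.018 over all genes. The cyclin D1 gene Ccnd1 fell 1.5-fold from 162 to 108 CPM (adjusted p = 0.00229). The Ccnd1 call was kept in 29 of 30 alternative settings, among them all 23 fits that left out 1 library (adjusted p up to 0.0107). It was lost in 1 setting of another kind (adjusted p = 0.0728). Cdk6, the kinase that cyclin D1 activates, rose 1.33-fold (adjusted p = 0.0354), a call lost in 8 of 23 fits that left out 1 library, those without library 7, 9 or 10 or any CAST/EiJ clean-air library numbered over 100 (adjusted p up to 0.0863). Without numbers over 100 the Cdk6 difference was 0.05 (adjusted p = 0.92). The responses of 6 targets differed between the strains, 3 in each direction (9.44% of all genes). Cdk6 (0.58, adjusted p = 0.0332) and the insulin-like growth factor receptor Igf1r (0.55, adjusted p = 0.0325) had the more positive response in CAST/EiJ. Wee1 (-0.62, adjusted p = 0.0147) and Timp3, an inhibitor of matrix proteases (-0.53, adjusted p = 0.0247), had the more negative one. None of these 4 differences passed without numbers over 100 (adjusted p from 0.112 to 0.416), and leaving out 1 library ended the Cdk6 call in 10 of 23 fits, that of Igf1r in 6 and that of Timp3 in 2.

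Between the strains in clean air 11 targets were higher and 18 lower in CAST/EiJ, beside 60.4% of all genes (29.4% higher and 31% lower), with a median of -0.18. Arl2, a small GTPase, was 1.99-fold higher (adjusted p = 1.1e-06) and Wee1 1.76-fold higher (adjusted p = 1.94e-07). The neurotrophin gene Bdnf was 2.41-fold lower (adjusted p = 7.19e-10) and Cdk6 2.08-fold lower (adjusted p = 4.67e-08). Under BD 6 were higher and 10 lower (42.7% of all genes, with 20.4% higher and 22.3% lower). Ucp2, a mitochondrial carrier, was 1.85-fold higher (adjusted p = 7.42e-06) and the death-associated kinase gene Dapk1 1.55-fold higher (adjusted p = 0.000372). Bdnf was 2.43-fold lower (adjusted p = 2.47e-09) and the cell cycle repressor E2f7 1.97-fold lower (adjusted p = 0.00101).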

How the data were processed

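Per the submitters' processing notes, Bowtie aligned the small RNA reads and GSNAP the RNA-seq reads, with mm9 as the genome. Versions, quantifier, annotation and strand use are not given in the sources used here. The authors deposited 1 table of estimated counts per mature miRNA and locus, of which 64.1% were whole numbers (tolerance 1e-06), and 1 table of raw counts per gene for RNA-seq. Libraries were total RNA and poly(A) RNA from lung, made with TruSeq kits per the labels' protocols. ATAC-seq samples of the series were not analysed here.

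Estimated counts were rounded. The 320 miRNAs listed in every library but number 8, which hold at least 98.4% of each library's counts, and the 17377 genes that passed edgeR's filter on low counts, of 23872 with a value in every library, were fitted with 1 mean per strain and exposure (edgeR 4.0.16, TMM, robust quasi-likelihood; R 4.3.3; limma 3.58.1). P-values were adjusted by Benjamini-Hochberg over all features tested, and a call was an adjusted p under 0.05. Library 8 was left out and kept under its label as an alternative. Confidence intervals are 95%. The fitting step was tested on simulated data. DESeq2 1.42.0 was an alternative tool, among the normalization, filter, library and title-number alternatives reported below. Ratios were tested with exact permutation tests (scipy 1.17.1, Python 3.11.15). A miRNA not listed in a library was treated as missing, and the smallest value listed in the table was 10.5 counts. More counts make a level more precise, and no interval here covers amplification error.

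Sequences and gene neighbours came from RefSeq tables of build GRCm38.p6. Because the counts were made on mm9, coordinates are printed only with the RefSeq sequence they belong to. The members and gene lists were chosen with earlier results of these data known. The text names every member, any miRNA that shares a member's seed, and the 3 miRNAs most correlated with the members described. It also names the host genes and Dicer1, and up to 2 called targets with the largest fold in each direction. Cd79a, Cd79b and Ms4a1 were used as B cell markers; 1 other listed gene is not reported here.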

Additional observations from a re-analysis of the deposited data

Results flagged for a closer look

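In groups of 4 to 10 libraries, 1 library stood away from the rest of its group by Dixon's criterion in 4 of 119 groups, where about 6 would be marked by chance. In C57BL/6J in clean air, replicate 1 (numbered over 100) held 879 CPM of miR-15a-5p (the others up to 709 CPM) and 241 CPM of Ccnd1 (the others up to 174 CPM). Library 5 of the same group held 50.5 CPM of miR-195-3p. In CAST/EiJ in clean air, replicate 3 (numbered over 100) held 30.1 CPM of Bcl6b (the others up to 24.2 CPM).

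The BD response differed between the strains in edgeR's interaction test (adjusted p under 0.05) for 5 of 12 members, beside 27.8% of all 320 miRNAs tested. The 2 entries of miR-103-3p among these members are 1 measurement. On the log2 scale, CAST/EiJ minus C57BL/6J, the difference was 1.08 for miR-497-5p, -0.71 for mmu-mir-103-1-3p, -0.68 for mmu-mir-103-2-3p, -0.62 for miR-107-3p and -0.68 for miR-15a-5p. Among the genes named it was 0.96 for Bcl6b, 0.58 for Cdk6, 0.55 for Igf1r, -0.62 for Wee1, -0.53 for Timp3 and -0.45 for Ccnd1. Ccnd1 was named for its fall in CAST/EiJ, and leaving out 1 library ended its call in 18 of 23 fits.

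miR-497-3p was not tested because 2 libraries do not list it. Its lowest level in C57BL/6J under BD was 11.3 CPM, above the highest of 8.01 CPM among the clean-air libraries that list it.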

How the results depend on the processing

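Over all alternatives, 1762 of 1960 values of members stayed on the same side of the threshold, as did 2836 of 2979 values of genes. Called values among these kept their direction, values not called could change sign, and values with no test moved by less than 1 SD. Of 172 ratio values, 152 were classed as the same. Because no ratio passed after adjustment, that class does not rest on the adjusted p. Direction turned for 5 called values of members. Without C57BL/6J BD libraries 15 to 17, a choice made after seeing the data, miR-195-3p under BD in C57BL/6J was at 0.12 and miR-497-5p between the strains under BD at -0.061. miR-15a-5p between the strains in clean air was at -0.025 without numbers over 100 and at -0.025 within numbers 1 to 10, and its difference in response was 0.13 with numbers 1 to 10 against others as a term. The cause was not tested.

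Of 12 members, 4 passed under BD in C57BL/6J. This became 2 with RLE normalization, 1 with no filter, 2 with DESeq2, and 1 each with only the compared groups, with library 8 kept, with the term for numbers 1 to 10, and with libraries thinned to the smallest total (also chosen after seeing the data). Without libraries 15 to 17 it was 0 (2 at an unadjusted p under 0.05), and of all miRNAs 0% rather than 31.6% passed in edgeR (39 of 320 unadjusted). In CAST/EiJ 2 members passed under BD, 3 with DESeq2, 3 with library 8 kept and 1 with no filter. The count was 0 with RLE normalization, with only the compared groups, without numbers over 100, with a term for numbers over 100, with the term for numbers 1 to 10 and within numbers 1 to 10 (3, 3, 1, 3, 3 and 6 at an unadjusted p under 0.05 in edgeR; DESeq2 was not run under these settings). Of all miRNAs 2.81% passed there, 7.19% with DESeq2 and 4.19% within numbers 1 to 10.

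Between the strains in clean air 5 members passed, 1 without numbers over 100, 1 with a term for them, 1 with the term for numbers 1 to 10 and 2 within numbers 1 to 10; of all miRNAs 39.7% passed, and 21.1% without numbers over 100. Under BD 5 members passed, 1 with the term for numbers 1 to 10 and 0 without libraries 15 to 17 (4 at an unadjusted p under 0.05 in edgeR); of all miRNAs 41.9% passed, 25% with that term and 8.75% without those libraries. The response differed for 5 members, 0 without numbers over 100 (4 unadjusted), 0 with the term for numbers 1 to 10 (1 unadjusted) and 2 without libraries 15 to 17; of all miRNAs it differed for 27.8%, and then for 1.81%, 2.81% and 3.12%.

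In RNA-seq 1857 genes passed under BD in C57BL/6J, 3016 without numbers over 100 and 3368 with a term for them. In CAST/EiJ 1255 passed, 2261 with DESeq2, 159 with only the compared groups, 2390 with library 8 kept, 627 without numbers over 100 and 275 with a term for them. The response differed for 1641, and for 1002 with no filter, 2507 with DESeq2, 320 without numbers over 100 and 84 with a term for them.

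Leaving out each library in turn gave calls in 21.2 to 38.3% of miRNAs and 1 to 4 members for BD in C57BL/6J, and in 0.312 to 7.81% and 0 to 3 members in CAST/EiJ. It gave 34.7 to 43.9% and 3 to 6 between the strains in clean air, 29.4 to 46.4% and 2 to 7 under BD, and 18.1 to 32.4% and 4 to 6 for the response. In RNA-seq the ranges were 977 to 2309, 354 to 3007, 9701 to 10799, 6808 to 7644 and 372 to 3392 genes in the same order.

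No paired analysis was possible because no 2 groups of an assay share a title number. The number of CAST/EiJ BD libraries, 3, limits every comparison with that group, and minor arms near 10 counts are at the table's lower limit.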
